A study of Thermothelomyces thermophilus with 49 samples.

Results

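Predicted β-glucosidase genes of the thermophilic cellulose-degrading fungus *Thermothelomyces thermophilus* were followed through 4 strains and 6 culture states. The 5 genes were MYCTH_115968, a member of glycoside hydrolase family GH1, and MYCTH_62925, MYCTH_66804, MYCTH_58882 and MYCTH_80304 of family GH3. They are 5 of the 9 genes that the study predicted to encode β-glucosidases, and 5 of the 9292 genes of the count table. The 5 are those that the study tabulated as differentially expressed at all times after the cellulose spike in at least 1 strain. The number of them called below in the responses to cellulose is therefore no independent evidence that β-glucosidase genes respond. The same holds for the numbers called in strain comparisons that use the samples after the spike. All 5 passed the filter on low counts, as did 8565 genes in all.

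Fungi break down cellulose with several kinds of enzymes that act together, many of them secreted. Endoglucanases cut inside the cellulose chain, cellobiohydrolases release the disaccharide cellobiose from the chain ends, and lytic polysaccharide monooxygenases (LPMOs) cleave the chain by oxidation. β-Glucosidases split cellobiose and short cellodextrins into glucose, which outside the cell removes a product that inhibits the other enzymes. Whether the products of the genes described here act inside or outside the cell was not examined. Genes for such enzymes are typically repressed on glucose and induced on cellulose, and in *Neurospora crassa* the transcription factors CLR-1 and CLR-2 are required for that induction.

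RNA was sequenced from bioreactor cultures of the parental strain MJK20.3 (*Δku80*) and of 3 deletion strains, BS7.8 (*Δku80, Δclr1*), BS6.4 (*Δku80, Δclr2*) and JK2.8 (*Δku80, Δclr4*). Every strain, the parental strain included, thus lacked *ku80*, a gene of non-homologous end joining, and each genotype was represented by 1 line grown in 2 cultures (R1 and R2). The deletions were made in MJK20.3 or in MJK20.2, from which MJK20.3 had been re-isolated after traces of wild type were found in it, and the *clr2* deletion is described for MJK20.2. Samples were taken in exponential growth on glucose in batch mode (ex), in the steady state of a glucose-limited chemostat (SS), and at t1, t2, t3 and t4, which were 0.5, 1, 2 and 4 h after cellulose had been added to the steady-state culture in batch mode. This gave 24 groups of 2 libraries. Libraries of the parental strain and *Δclr2* were made at one sequencing centre from purified, DNase-treated RNA, and those of *Δclr1* and *Δclr4* at another without that step, so levels were tested only between strains of the same centre, whereas the change from SS was compared between all strains.

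The 48 libraries held 2567179 to 22212257 counts, and those of *Δclr1* and *Δclr4* were the deeper ones (6128696 to 22212257 counts, against 2567179 to 7182468 in the parental strain and *Δclr2*). Levels are given as CPM (counts divided by the TMM-scaled library total and brought to a common scale) for culture R1 and then R2, and means with their SD over these 2 cultures. Fold changes are log2 values from edgeR's quasi-likelihood test, with the SE implied by the test and p-values adjusted by Benjamini-Hochberg over the 8565 genes (threshold 0.05). That SE is the log2 fold change over the root of the F statistic, and the 95% intervals of fold changes are built from it. For a gene with almost no counts in a state it can understate the error, and SEs of different contrasts need not combine. The strain labels were borne out by the deleted genes. *clr1* (MYCTH_2298863) had 0 to 20 counts per library in *Δclr1* (up to 1.61 CPM, against 43.4 to 377 CPM in the parental strain), *clr2* (MYCTH_38704) had 0 to 1 count in *Δclr2*, and *clr4* (MYCTH_2296492) had 0 to 2 counts in *Δclr4*.

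In the parental strain, 4 of the 5 genes rose and 1 fell at every time after the spike (20 of 20 tests), where 33.5% (t1), 42.2% (t2), 32.8% (t3) and 13.7% (t4) of all tested genes were called. By direction, 15.5%, 20.1%, 13.7% and 7.45% of all genes were higher and 18.0%, 22.1%, 19.1% and 6.28% lower from t1 to t4. The genes that rose were MYCTH_115968, MYCTH_62925, MYCTH_66804 and MYCTH_58882, and the gene that fell was MYCTH_80304. For the mean of t1 to t4 against SS, 36.6% of all tested genes were called.

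MYCTH_115968 (chromosome 3, 1092854 to 1095039, assembly ASM22609v1), the only GH1 gene among the 9, had the highest level per length of the 5 genes after the spike in the parental strain. Its parental level was 117 and 89.6 CPM in SS, 4939 and 5806 CPM at t1, 7089 and 8578 CPM at t2, 8321 and 6891 CPM at t3, and 4328 and 3222 CPM at t4, against 35.0 and 36.9 CPM in ex. The gene was thus already high at 0.5 h, where it reached 68.6% of its t2 mean, and the libraries of t2 and t3 overlapped while all other neighbouring states were separate. The log2 fold change against SS was 5.70 ± 0.29 (SE), 6.24 ± 0.30, 6.20 ± 0.30 and 5.19 ± 0.28 from t1 to t4, with a mean of 5.83 ± 0.28 (adjusted p = 9.9e-18). At t2 its transcripts made up 0.659% and 0.756% of all counts in the parental cultures.

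MYCTH_62925 (chromosome 1, 3330354 to 3333832) was nearly silent on glucose. The parental libraries held 0.560 and 0.251 CPM in ex and 2.55 and 1.44 CPM in SS, then 1129 and 1751 CPM at t1, 2622 and 3020.4 CPM at t2, 2145 and 1287 CPM at t3, and 1125 and 1002 CPM at t4. Its highest mean, 2821 ± 282 CPM, was at t2, and t1 and t3 overlapped. The log2 fold changes were 9.45 ± 0.47, 10.42 ± 0.48, 9.71 and 9.01 from t1 to t4, with a mean of 9.65 ± 0.46 (adjusted p = 1.6e-17).

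MYCTH_66804 (chromosome 3, 4861135 to 4863642) rose more slowly. It stood at 2.52 and 4.52 CPM in ex, 8.05 and 7.43 CPM in SS, 111 and 400.2 CPM at t1, 1064 and 1445 CPM at t2, 656 and 641 CPM at t3, and 272 and 353 CPM at t4 in the parental strain. The 2 cultures differed 3.61-fold at t1, and the mean at that time was 20.4% of that at t2. The log2 fold change was 5.04 ± 0.53 at t1 and 7.33 ± 0.56 at t2, with a mean over the 4 times of 6.02 ± 0.51 (adjusted p = 2.7e-10).

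MYCTH_58882 (chromosome 6, 51326 to 53769) had 1 and 0 counts in the parental SS libraries and 1 and 0 in ex. After the spike it stood at 89.3 and 292 CPM at t1, 999.9 and 1133 CPM at t2, 772 and 693 CPM at t3, and 367 and 436 CPM at t4. The cultures differed 3.27-fold at t1, with R2 again the higher one as for MYCTH_66804 and MYCTH_62925. Since the size of a change from 1 count is poorly fixed, the ratio of pooled counts per library total is given with its 95% counting interval, which covers counting error only. It was 1799 (322 to 71106) at t1 and 9863 (1769.7 to 389589.8) at t2, and the fitted mean log2 fold change was 11.98 ± 0.84 (adjusted p = 7.8e-12). The SE of that fit is tighter than the few SS counts allow.

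MYCTH_80304 (chromosome 3, 3949561 to 3952737) had the highest level of the 9 predicted β-glucosidase genes in the glucose-limited steady state. Its parental level was 22.7 and 25.9 CPM in ex, 1375 and 951 CPM in SS, 113 and 140.1 CPM at t1, 196 and 144 CPM at t2, 70.3 and 68.4 CPM at t3, and 58.9 and 46.0 CPM at t4. No 2 states overlapped, and SS stood above all others. The log2 fold change against SS was −3.20 ± 0.26, −2.77 ± 0.25, −4.07 and −4.47 from t1 to t4, with a mean of −3.63 ± 0.16 (adjusted p = 2.2e-18). At the spike the culture also went from continuous glucose feeding to batch mode, and the effects of removing glucose and of adding cellulose cannot be told apart in this design.

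**Figure D1:**
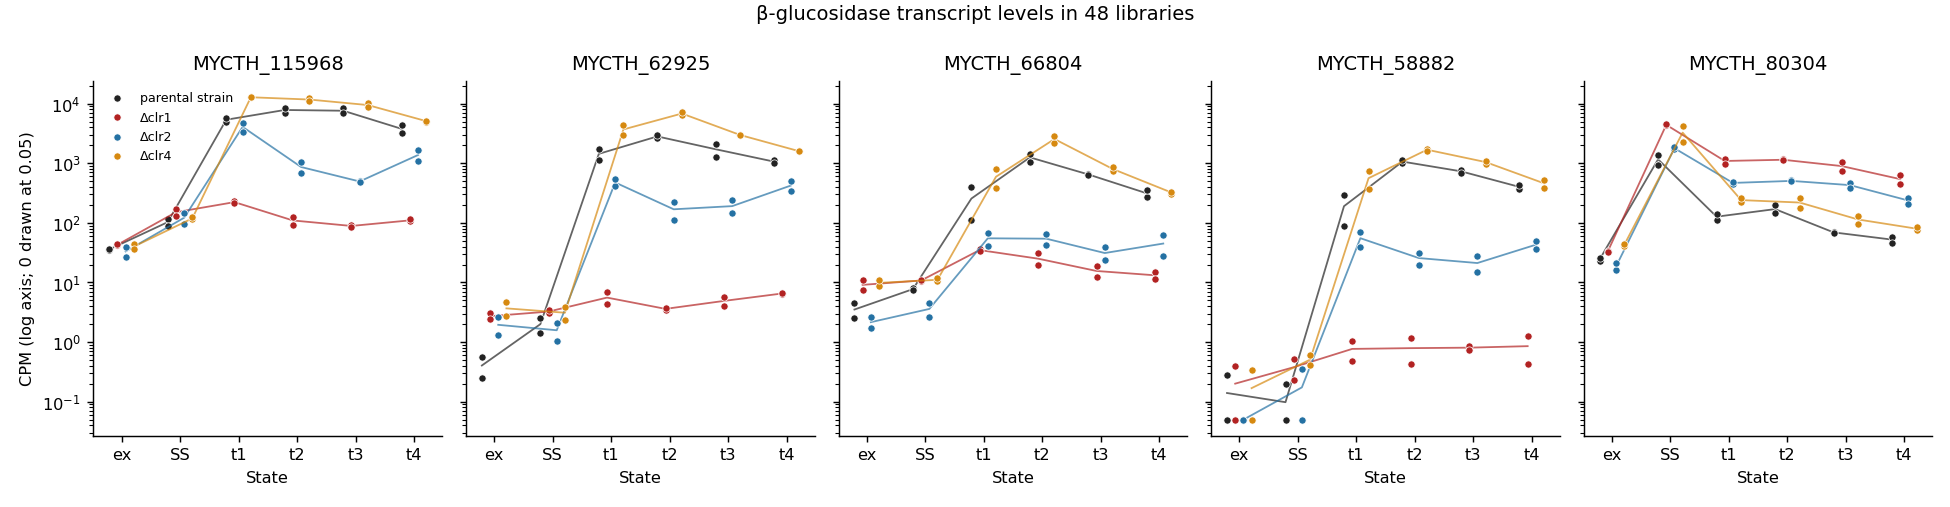
Level of each gene in CPM (log axis, zeros drawn at 0.05) in the 6 states, with 1 point per library coloured by strain and a line through the mean of the 2 cultures. In the parental strain and *Δclr4*, 4 genes climb steeply at t1 (MYCTH_115968 to 4939 and 5806 CPM in the parental strain) and MYCTH_80304 drops from SS, whereas the *Δclr1* points of the 4 genes stay far below those of *Δclr4* on cellulose, with a small rise of MYCTH_66804 to 36.3 and 33.7 CPM at t1.

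According to the paper, strains without *clr1* or *clr2* could not use the cellulose and ceased to grow, while the parental strain and *Δclr4* grew on it. The loss of the regulator and the arrest of growth therefore cannot be told apart in *Δclr1* and *Δclr2* after the spike. The response was next described in *Δclr1*. There, 9 of 20 tests at single times were called, 4 of them for MYCTH_80304, where 51.5% (t1), 54.5% (t2), 55.1% (t3) and 54.2% (t4) of all tested genes were called. Over the mean of t1 to t4, 1 gene rose (MYCTH_66804) and 1 fell (MYCTH_80304), where 60.9% of all genes were called. At the single times 23.8%, 24.9%, 25.8% and 25.7% of all genes were higher and 27.7%, 29.6%, 29.4% and 28.5% lower. The share of members called was above that of all genes at t1 (3 of 5) and below it at the other times (2 of 5 each) and for the mean.

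MYCTH_115968 in *Δclr1* was at 41.8 and 44.3 CPM in ex, 174 and 129 CPM in SS, 229 and 217 CPM at t1, 93.4 and 126 CPM at t2, 93.0 and 84.6 CPM at t3, and 106 and 114 CPM at t4. The highest cellulose value was thus above both SS libraries and the later ones were below them. The log2 fold change was 0.56 ± 0.24 at t1 (adjusted p = 0.049) and −0.77 at t3 (adjusted p = 0.0071). It was −0.46 at both t2 and t4, each with an adjusted p of 0.10, or 0.042 with the culture as a block. The change at t4 was also called in the model of this strain alone. The t1 call was lost without the filter on low counts, without the ex libraries, and without SS R2, t1 R1 or t1 R2. That at t3 was lost without SS R1 or t3 R2. The mean over the 4 times, −0.28 ± 0.18 (95% interval −0.66 to 0.10), missed the threshold (adjusted p = 0.19).

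MYCTH_62925 remained a low-count gene, with 3.02 and 2.43 CPM in ex, 3.06 and 3.44 CPM in SS, 4.36 and 6.80 CPM at t1, 3.44 and 3.78 CPM at t2, 4.03 and 5.80 CPM at t3, and 6.43 and 6.67 CPM at t4. Neighbouring states overlapped in 3 of 5 cases. It was called at t4 (log2 fold change 1.00, adjusted p = 0.028), a call that was lost without any 1 of the 4 libraries behind it. At t1 it was not called (0.75, adjusted p = 0.10, or 0.041 with DESeq2), and its mean of 0.62 ± 0.32 (−0.03 to 1.28) was not called (adjusted p = 0.090, or 0.031 with DESeq2).

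MYCTH_66804 showed a small rise in *Δclr1*. It was at 10.9 and 7.38 CPM in ex, 10.6 and 11.1 CPM in SS, 36.3 and 33.7 CPM at t1, 19.5 and 30.8 CPM at t2, 12.6 and 18.6 CPM at t3, and 14.9 and 11.4 CPM at t4. All 8 cellulose libraries were above both SS libraries, with the highest values at t1. The log2 fold change was 1.69 ± 0.45 at t1 (adjusted p = 0.0023) and 1.22 at t2 (adjusted p = 0.024), with a mean of 0.93 ± 0.37 (adjusted p = 0.033). Leaving out SS R1, SS R2, t2 R2, t3 R2 or t4 R1 lost the call on the mean (adjusted p up to 0.16), and the call at t2 was lost without SS R1, SS R2 or t2 R2.

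MYCTH_58882 had 3 to 14 counts per library after the spike in *Δclr1* and 6 and 4 counts in SS. These correspond to 0.524 and 0.233 CPM in SS and to between 0.430 and 1.28 CPM at the 4 later times, and all neighbouring states overlapped. The mean log2 fold change of 1.19 ± 0.90 had an interval of −0.66 to 3.04 (adjusted p = 0.26). With so few counts of this gene, the size of any change is poorly known.

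MYCTH_80304 fell in *Δclr1* as well. It stood at 33.9 and 32.5 CPM in ex, 4327 and 4501 CPM in SS, 1202 and 985 CPM at t1, 1176 and 1115 CPM at t2, 1054 and 739.5 CPM at t3, and 632 and 452 CPM at t4. Every cellulose library was below both SS libraries and far above ex. The log2 fold changes were −2.01, −1.95, −2.30 and −3.03 from t1 to t4, with a mean of −2.32 ± 0.16 (adjusted p = 7.9e-14).

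In *Δclr2*, the 4 genes rose and MYCTH_80304 fell at every time (20 of 20 tests), where 46.9% (t1), 54.5% (t2), 51.3% (t3) and 47.4% (t4) of all tested genes were called, and 56.7% for the mean of the 4 times. By direction these were 22.6%, 26.2%, 23.5% and 21.5% higher and 24.3%, 28.3%, 27.8% and 25.9% lower. MYCTH_115968 was at 26.9 and 39.5 CPM in ex, 95.4 and 148 CPM in SS, 3385 and 4769 CPM at t1, 674 and 1056 CPM at t2, 511 and 479.7 CPM at t3, and 1096 and 1657 CPM at t4. The states did not overlap, and the order was t1, t4, t2, t3, SS and ex, with t3 at 12.1% and t4 at 33.8% of the t1 mean. The log2 fold changes of 5.07, 2.84, 2.03 and 3.51 followed that course (mean 3.36 ± 0.24, adjusted p = 1.5e-13).

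MYCTH_62925 in *Δclr2* was at 1.30 and 2.59 CPM in ex, 1.04 and 2.12 CPM in SS, 416 and 536 CPM at t1, 111 and 226 CPM at t2, 238 and 144 CPM at t3, and 337 and 507 CPM at t4. MYCTH_66804 was at 1.74 and 2.59 CPM in ex, 2.61 and 4.59 CPM in SS, 41.4 and 68.8 CPM at t1, 42.6 and 66.0 CPM at t2, 23.6 and 38.7 CPM at t3, and 28.0 and 62.0 CPM at t4. MYCTH_58882 had no count in ex, 0.348 and 0 CPM in SS, 71.1 and 39.5 CPM at t1, 31.4 and 20.0 CPM at t2, 27.5 and 14.8 CPM at t3, and 49.4 and 36.7 CPM at t4. Each of these 3 genes was, like MYCTH_115968, highest at t1 by its mean, but t4 overlapped t1 in each of them, and for MYCTH_66804 t2 did so as well. The mean log2 fold changes were 7.63 ± 0.46 for MYCTH_62925 (adjusted p = 5.7e-15), 3.76 ± 0.56 for MYCTH_66804 (adjusted p = 1.7e-06) and 7.09 ± 0.89 for MYCTH_58882 (adjusted p = 1.3e-07). For MYCTH_58882, where SS held 2 counts in all, the pooled count ratio was 233 (64.2 to 1929) at t1 and 89.9 (24.6 to 746) at t3.

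MYCTH_80304 in *Δclr2* was at 16.1 and 21.0 CPM in ex, 1721 and 1854 CPM in SS, 456 and 479 CPM at t1, 515 and 498 CPM at t2, 472 and 388 CPM at t3, and 266 and 208 CPM at t4. All cellulose libraries were below SS and above ex, and only t1 and t3 overlapped among neighbouring states. The mean log2 fold change was −2.18 ± 0.16 (adjusted p = 5e-13).

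In *Δclr4*, again, 4 genes rose and 1 fell at every time (20 of 20 tests), where 39.9% (t1), 49.3% (t2), 37.9% (t3) and 16.8% (t4) of all tested genes were called, and 43.9% for the mean. By direction they were 17.9%, 23.5%, 16.1% and 8.34% higher and 22.1%, 25.8%, 21.8% and 8.42% lower. MYCTH_115968 was at 43.7 and 36.2 CPM in ex, 114 and 124 CPM in SS, 12754 and 12851 CPM at t1, 12292 and 11152 CPM at t2, 10096 and 8852 CPM at t3, and 5009 and 5169.9 CPM at t4. These values at t1, up to 1.26% of all counts of a library, were the highest of any β-glucosidase gene in the series. That ranking crosses the sequencing centres, and the levels were not tested between them. Ranked by CPM per kilobase of gene span, the gene was then the fifth and the fourth of all genes in R1 and R2. Its log2 fold change fell from 6.75 at t1 to 5.42 at t4 (mean 6.28 ± 0.28, adjusted p = 1.6e-18).

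MYCTH_62925 in *Δclr4* was at 2.69 and 4.67 CPM in ex, 2.37 and 3.85 CPM in SS, 2971 and 4413 CPM at t1, 6551 and 7107 CPM at t2, 2961 and 2986 CPM at t3, and 1587 and 1610.1 CPM at t4. MYCTH_66804 was at 8.83 and 10.9 CPM in ex, 10.6 and 11.7 CPM in SS, 378 and 810.1 CPM at t1, 2212 and 2888 CPM at t2, 736 and 863 CPM at t3, and 311 and 335 CPM at t4. MYCTH_58882 was at 0 and 0.338 CPM in ex, 0.415 and 0.601 CPM in SS, 368 and 755 CPM at t1, 1743 and 1633 CPM at t2, 986 and 1109 CPM at t3, and 392 and 529 CPM at t4. As in the parental strain, these 3 GH3 genes peaked at t2, and as there the 2 cultures were farthest apart at t1 among the times after the spike for MYCTH_66804 (2.14-fold) and MYCTH_58882 (2.05-fold). The mean log2 fold changes were 10.11 ± 0.44 for MYCTH_62925 (adjusted p = 1.1e-18), 6.15 ± 0.49 for MYCTH_66804 (adjusted p = 4.9e-11) and 10.70 ± 0.65 for MYCTH_58882 (adjusted p = 3e-13).

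MYCTH_80304 in *Δclr4* was at 41.2 and 43.5 CPM in ex, 2315 and 4223 CPM in SS, 222 and 259.7 CPM at t1, 176 and 263 CPM at t2, 97.0 and 132 CPM at t3, and 75.9 and 83.8 CPM at t4. The SS cultures differed 1.82-fold, yet both were above every cellulose library. The mean log2 fold change was −4.46 ± 0.16 (adjusted p = 8.6e-21).

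**Figure D2:**
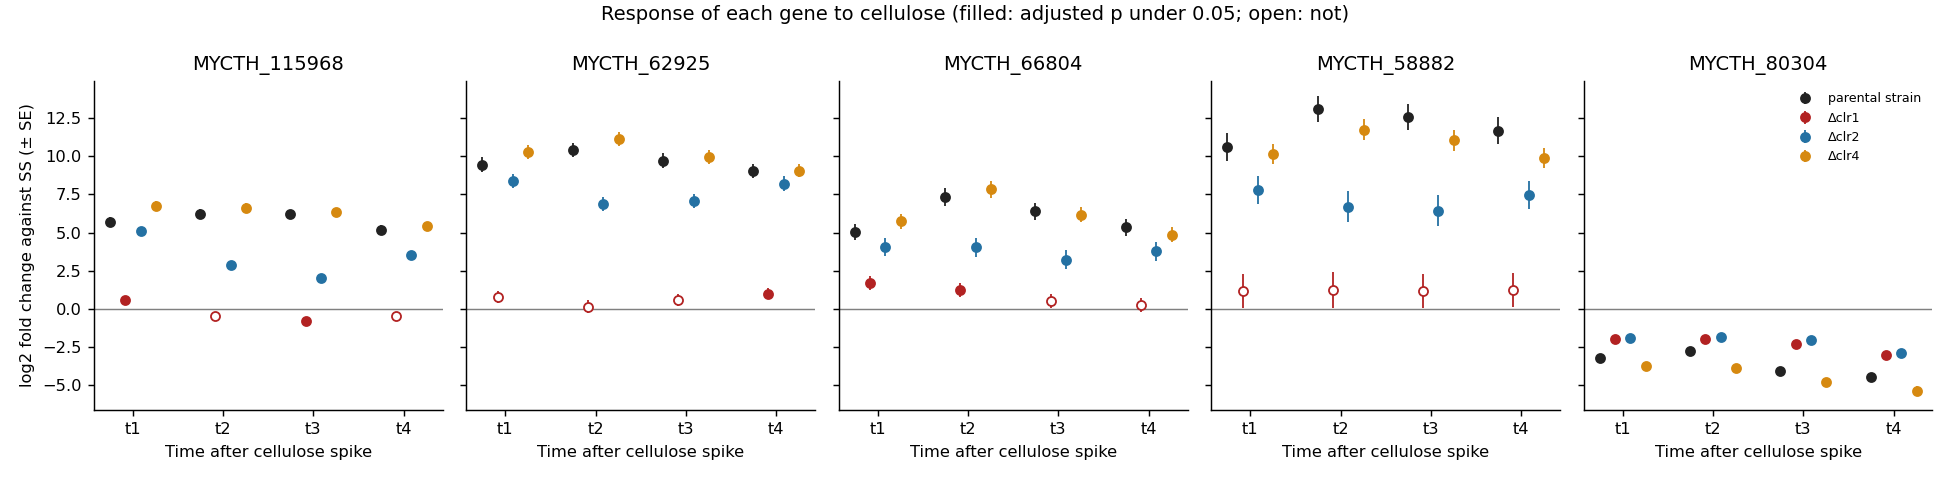
Log2 fold change against SS (± SE) of each gene at t1 to t4 in the 4 strains, with filled symbols for an adjusted p under 0.05 and open ones otherwise. All parental, *Δclr2* and *Δclr4* symbols are filled, while *Δclr1* has 9 filled symbols of 20, lies near 0 for MYCTH_115968 (0.56 to −0.77) and is lowest in size for the 4 genes that rise.

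The responses were next compared between strains as a difference of the mean log2 fold change. A factor that multiplies the level of a gene and is constant within a centre cancels in this difference. A background added to the counts would not cancel, above all for genes with few SS counts. Whether the centres differed in such a background was not tested. Between *Δclr1* and the parental strain all 5 genes differed, where 38.5% of all tested genes were called. The response was lower in *Δclr1* by −6.11 ± 0.31 for MYCTH_115968 (adjusted p = 1.1e-16), −9.03 ± 0.53 for MYCTH_62925 (adjusted p = 1.1e-14), −5.09 ± 0.58 for MYCTH_66804 (adjusted p = 9.1e-08) and −10.79 ± 2.16 for MYCTH_58882 (adjusted p = 0.00026). The decrease of MYCTH_80304 was smaller in *Δclr1*, by 1.31 ± 0.27 (adjusted p = 0.00020). These 5 calls held under all alternatives run.

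Between *Δclr2* and the parental strain, 3 of 5 genes differed, where 31.0% of all tested genes were called. The response of MYCTH_115968 was lower in *Δclr2* by −2.47 ± 0.28 (adjusted p = 4.6e-08), and the decrease of MYCTH_80304 was smaller by 1.45 ± 0.27 (adjusted p = 8.4e-05). That of MYCTH_66804 was lower by −2.26 ± 0.84 (adjusted p = 0.041), a call lost in the model of these 2 strains alone and without any 1 of parental SS R1, SS R2 or t2 R2 and *Δclr2* SS R1, SS R2 or t3 R1 (adjusted p up to 0.20). For MYCTH_62925 the difference was −2.02 ± 0.82 (−3.71 to −0.33, adjusted p = 0.060), and for MYCTH_58882 it was −4.89 ± 3.48 (−12.07 to 2.30, adjusted p = 0.31). Both were called with DESeq2 (adjusted p = 0.0069 and 0.027), and MYCTH_62925 was also called without parental t3 R2, *Δclr2* t2 R1, t2 R2, t3 R1 or t4 R2.

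The response of *Δclr4* was not called as different from the parental one for any of the 5 genes (0 genes with edgeR and with DESeq2, and 1 gene at edgeR's unadjusted p under 0.05), where 0.0467% of all tested genes were called. The differences were 0.45 ± 0.27 for MYCTH_115968 (95% interval −0.11 to 1.00), 0.47 ± 0.60 for MYCTH_62925 (−0.78 to 1.71), 0.13 ± 0.59 for MYCTH_66804 (−1.09 to 1.35) and −1.28 ± 2.34 for MYCTH_58882 (−6.10 to 3.55). For MYCTH_80304 it was −0.84 ± 0.26 (−1.38 to −0.29, adjusted p = 0.31), and this was the gene that passed only without adjustment. The intervals leave room for differences of the size printed, which for MYCTH_58882 is wide because of its few SS counts.

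The 2 strains with a reduced response were also compared with each other, where 3.92% of all tested genes were called. The response of 3 of the 5 genes was lower in *Δclr1* than in *Δclr2*, by −3.64 ± 0.28 for MYCTH_115968 (adjusted p = 7.9e-11), −7.01 ± 0.56 for MYCTH_62925 (adjusted p = 1.8e-10) and −2.83 ± 0.68 for MYCTH_66804 (adjusted p = 0.014). The last of these was lost without *Δclr1* SS R2 or *Δclr2* SS R1 (adjusted p up to 0.25). For MYCTH_58882 the difference of −5.90 ± 1.86 (−9.75 to −2.06) missed the threshold (adjusted p = 0.075), but passed it with the culture as a block (−6.02, adjusted p = 0.035), with DESeq2 and in the model of these 2 strains alone. For MYCTH_80304, −0.14 ± 0.26 was not called (adjusted p = 0.85).

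Against *Δclr4*, which was sequenced at the same centre, all 5 responses differed in *Δclr1*, where 35.3% of all tested genes were called. The differences were −6.56 ± 0.31 for MYCTH_115968 (adjusted p = 2.1e-17), −9.49 ± 0.50 for MYCTH_62925 (adjusted p = 3.9e-16), −5.22 ± 0.54 for MYCTH_66804 (adjusted p = 1.5e-08), −9.51 ± 1.84 for MYCTH_58882 (adjusted p = 0.00020) and 2.14 ± 0.27 for MYCTH_80304 (adjusted p = 1.2e-07). This comparison and that with the parental strain share the *Δclr1* libraries, and those with the parental strain share its libraries.

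**Figure D3:**
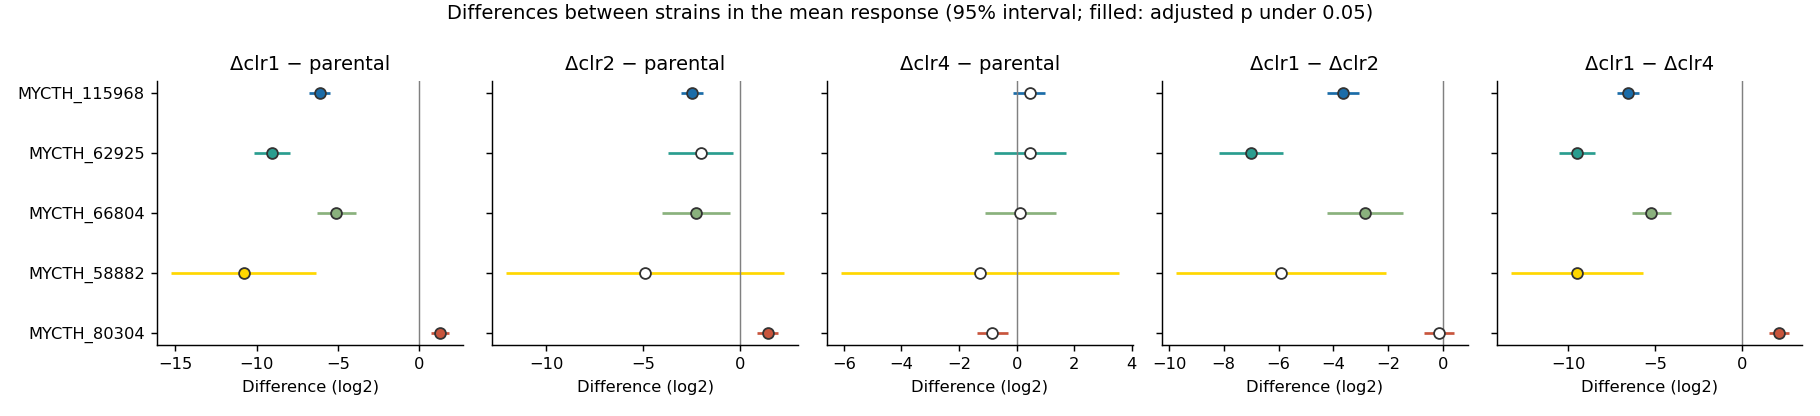
Difference between 2 strains in the mean log2 fold change of t1 to t4 against SS for each gene, with the 95% interval and filled symbols for an adjusted p under 0.05. All 5 genes are filled for *Δclr1* against the parental strain and against *Δclr4*, 3 are filled for *Δclr2* against the parental strain, and none is for *Δclr4* against the parental strain, where the widest interval (−6.10 to 3.55) belongs to MYCTH_58882.

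Within the sequencing centre shared by *Δclr2* and the parental strain, levels were compared state by state. Before the spike none of the 5 genes was called (edgeR and DESeq2; 1 gene in ex and 1 in SS at an unadjusted p under 0.05), where 0.00% of all genes were called in ex (384 genes at an unadjusted p under 0.05, and 0 with DESeq2) and 0.0934% in SS. After it, 4 genes were called at t1 and 5 at t2, t3 and t4, where 28.9%, 39.3%, 45.8% and 49.2% of all genes were called. MYCTH_115968 was not called at t1 (log2 difference −0.40, adjusted p = 0.22), where the parental libraries held 4939 and 5806 CPM and the *Δclr2* libraries 3385 and 4769 CPM, and was lower in *Δclr2* by −3.18 at t2, −3.94 at t3 and −1.46 at t4. MYCTH_62925 was lower by −1.60, −4.06, −3.17 and −1.33 from t1 to t4. The deficit of these genes was thus smaller at t1 and t4 than at the 2 times between, as a description, since the change of the deficit with time was not tested.

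MYCTH_66804 was lower in *Δclr2* by −2.21, −4.53, −4.38 and −2.79 from t1 to t4, and MYCTH_58882 by −1.79, −5.38, −5.12 and −3.22. Both t1 calls rested on parental t1 R2, the culture with the higher level, without which neither was called, and that of MYCTH_58882 was also lost without *Δclr2* t1 R2. MYCTH_80304 was higher in *Δclr2* than in the parental strain by 1.88, 1.57, 2.63 and 2.18 from t1 to t4. Its SS levels of 1787 ± 94.1 CPM in *Δclr2* and 1163 ± 300.2 CPM in the parental strain were not called as different.

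At the other centre, *Δclr1* and *Δclr4* did not pass the test for any of the 5 genes in ex or SS (edgeR and DESeq2, and 0 genes at an unadjusted p under 0.05), where 0.0350% and 0.385% of all genes were called. All 5 differed at each of t1 to t4, where 43.9%, 35.3%, 41.3% and 54.3% of all genes were called. MYCTH_115968 was lower in *Δclr1* by −5.84, −6.74, −6.74 and −5.53, MYCTH_62925 by −9.38, −10.87, −9.24 and −7.93, and MYCTH_66804 by −4.08, −6.65, −5.68 and −4.61. MYCTH_58882 was lower by −9.43, −10.94, −10.31 and −9.08, and MYCTH_80304 was higher by 2.18, 2.38, 2.97 and 2.76. MYCTH_58882 in *Δclr1* had few counts, so its differences are less exactly known than the others.

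The times at which the genes rose and fell were compared as steps between neighbouring samples. In the parental strain, 16.6%, 20.0% and 12.5% of all genes were called in the steps from t1 to t2, t2 to t3 and t3 to t4. From t1 to t2 MYCTH_66804 rose by 2.29, MYCTH_58882 by 2.48 and MYCTH_62925 by 0.97 (adjusted p = 0.020, lost without t1 R1 or t2 R2), while MYCTH_115968 changed by 0.54, which missed the threshold (adjusted p = 0.12) but passed it with the culture as a block (adjusted p = 0.038). From t2 to t3 MYCTH_80304 fell by 1.30, and from t3 to t4 MYCTH_115968 fell by 1.01 (adjusted p = 0.0040, lost without t3 R1 or t4 R2).

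With the culture as a block, the parental steps also passed the threshold for MYCTH_62925 from t2 to t3 (−0.72, adjusted p = 0.047), MYCTH_66804 from t2 to t3 (−0.91, adjusted p = 0.019) and t3 to t4 (−1.09, adjusted p = 0.0087), and MYCTH_58882 from t3 to t4 (−0.90, adjusted p = 0.043). That brought the parental step calls from 5 to 10 of 15. By t4 the parental means were 48.2% of the highest cellulose mean for MYCTH_115968, 37.7% for MYCTH_62925, 24.9% for MYCTH_66804 and 37.6% for MYCTH_58882.

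In *Δclr4* the called steps had the same directions as the called parental ones, with 19.3%, 23.7% and 19.6% of all genes called. From t1 to t2 MYCTH_66804 rose by 2.10 (adjusted p = 0.00048), MYCTH_58882 by 1.59 (adjusted p = 0.0045, lost without t1 R1) and MYCTH_62925 by 0.89 (adjusted p = 0.030, lost without t1 R1, t2 R1 or t2 R2). From t2 to t3 MYCTH_62925 fell by 1.20 (adjusted p = 0.0028), MYCTH_66804 fell by 1.67 (adjusted p = 0.0031) and MYCTH_80304 fell by 0.94 (adjusted p = 0.0037, lost without t2 R2 or t3 R1). From t3 to t4, 4 genes were lower, MYCTH_115968 by −0.90 (adjusted p = 0.0070), MYCTH_62925 by −0.90 (adjusted p = 0.029), MYCTH_66804 by −1.31 (adjusted p = 0.023) and MYCTH_58882 by −1.19 (adjusted p = 0.032, or 0.074 with DESeq2). None of these 4 calls held under every fit with 1 library left out. That of MYCTH_115968 was lost without t3 R1 or t4 R1, that of MYCTH_66804 without t3 R2, t4 R1 or t4 R2, and those of MYCTH_62925 and MYCTH_58882 without any 1 of the 4 libraries. Leaving out t3 R1 or t4 R1 reduced the 10 step calls of *Δclr4* to 6.

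In *Δclr2* the course was a different one, with 21.3%, 26.9% and 8.91% of all genes called in the 3 steps. From t1 to t2, MYCTH_115968 fell by 2.24 and MYCTH_62925 fell by 1.49, and MYCTH_58882 passed with the culture as a block (−1.09, adjusted p = 0.026) and not without it (−1.11, adjusted p = 0.073). From t2 to t3, MYCTH_115968 fell by 0.80 (adjusted p = 0.011), a call lost in the model of the compared strains alone and without t2 R2, t3 R1 or t3 R2. From t3 to t4, MYCTH_115968 rose by 1.47 and MYCTH_62925 by 1.14 (adjusted p = 0.014, lost in that model and without t3 R2 or t4 R2), and MYCTH_80304 fell by 0.86 (adjusted p = 0.021, lost without t3 R1 or t4 R2). MYCTH_115968 and MYCTH_62925 thus had a low point at t2 or t3 in *Δclr2*. The steps themselves were not tested for a difference between strains.

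In *Δclr1*, where 17.2%, 15.8% and 2.46% of all genes were called, the one step call was a fall of MYCTH_115968 by 1.02 from t1 to t2 (adjusted p = 0.0027), which was lost without t2 R1. From t3 to t4, MYCTH_80304 had a log2 difference of −0.73 with an adjusted p of 0.087, or 0.018 with the culture as a block and 0.040 with DESeq2.

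Growth on excess glucose was compared with the glucose-limited steady state. MYCTH_115968 was lower in ex than in SS in every strain, with log2 differences of −1.53 (parental strain), −1.81 (*Δclr1*), −1.84 (*Δclr2*) and −1.57 (*Δclr4*). MYCTH_80304 was lower by −5.58, −7.05, −6.55 and −6.27 in the same order. These 2 genes were the only ones of the 5 called, where 41.9%, 45.9%, 38.4% and 47.8% of all genes were called. MYCTH_62925 in the parental strain held 3 counts in ex and 19 in SS over both cultures, a ratio of 0.194 (0.0367 to 0.658), and its log2 difference of −2.32 had an adjusted p of 0.068, or 0.034 with DESeq2. That difference was also called in the model of the parental strain alone. The libraries of ex and SS also did not overlap for MYCTH_66804 in the parental strain and *Δclr2*, MYCTH_62925 in *Δclr1* and MYCTH_58882 in *Δclr4*, with ex the lower state each time and no call. The share of all genes without such overlap was not counted, and with 2 libraries per state no difference is read from it.

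Against ex, the mean of the cellulose times was higher for all 5 genes in the parental strain, *Δclr2* and *Δclr4*, where 64.9%, 70.7% and 70.8% of all genes were called. The gene MYCTH_80304, which fell from SS, was still above its ex level by 1.95 in the parental strain, 4.37 in *Δclr2*, 1.81 in *Δclr4* and 4.73 in *Δclr1*. The other log2 differences in *Δclr1*, where 73.9% of all genes were called, were 1.53 for MYCTH_115968, 0.88 for MYCTH_62925 (adjusted p = 0.024), 1.18 for MYCTH_66804 and 1.97 for MYCTH_58882 (adjusted p = 0.13, or 0.019 with DESeq2). Without *Δclr1* ex R2 the calls for MYCTH_62925 and MYCTH_66804 were lost, leaving 2 of 5, and that for MYCTH_62925 was also lost without ex R1. In the parental strain the corresponding differences were 7.36, 11.97, 7.14 and 11.71.

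The make-up of the β-glucosidase transcripts was described as the share of each gene in the summed counts of the 9 predicted genes, as the mean ± SD of the 2 cultures and without a test, since 2 against 2 cultures cannot go below an exact permutation p of 0.33. In SS, MYCTH_80304 held 81.5 ± 1.76% of these counts in the parental strain and 90.4 ± 0.00431%, 86.5 ± 1.73% and 86.2 ± 2.91% in *Δclr1*, *Δclr2* and *Δclr4*. MYCTH_115968 held 7.31 ± 0.358%, 3.11 ± 0.728%, 5.84 ± 1.38% and 3.37 ± 1.11% in the same order. The steady-state pool was thus dominated by the same gene in all 4 strains.

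Over t1 to t4, MYCTH_115968 held 66.5 ± 2.27% in the parental strain, 55.9 ± 3.59% in *Δclr2*, 62.7 ± 3.54% in *Δclr4* and 9.27 ± 0.724% in *Δclr1*. The second gene of the parental pool was MYCTH_62925, with 18.5 ± 0.172%, against 12.8 ± 0.00966% in *Δclr2*, 22.5 ± 1.42% in *Δclr4* and 0.402 ± 0.0816% in *Δclr1*. The share of MYCTH_80304 fell to 1.14 ± 0.119% in the parental strain and 1.02 ± 0.129% in *Δclr4*, but averaged 20.6 ± 3.45% in *Δclr2* and 63.2 ± 7.14% in *Δclr1*. The *Δclr2* share varied with time, with 8.93 ± 1.54%, 29.4 ± 6.57%, 33.0 ± 1.41% and 11.0 ± 4.26% from t1 to t4 for MYCTH_80304 and 76.2 ± 2.54%, 48.7 ± 5.64%, 38.2 ± 1.94% and 60.6 ± 4.24% for MYCTH_115968. In *Δclr1* the pool on cellulose was therefore led by the same gene as in SS, and the changeover seen in the other 3 strains was missing.

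The shares of the 2 smaller GH3 genes moved likewise. MYCTH_66804 held 6.03 ± 1.37% in the parental strain, 5.93 ± 1.07% in *Δclr4*, 2.11 ± 0.545% in *Δclr2* and 1.37% and 1.62% in the cultures of *Δclr1*, and MYCTH_58882 held 6.07 ± 0.863%, 5.83 ± 0.696%, 1.56 ± 0.698% and 0.0610 ± 0.0205%. Summed over the 5 genes, the level was 1276 ± 321 CPM in SS and 13146 ± 1662 CPM at t2 in the parental strain, and 3402 ± 1358 CPM and 23009 ± 49.2 CPM in *Δclr4*. In *Δclr1* the sum went down, from 4579.8 ± 92.8 CPM in SS to 1358 ± 163 CPM at t1 and 673 ± 124 CPM at t4. In *Δclr2* it stood at 1915 ± 133 CPM in SS, 5131 ± 1077 CPM at t1, 1169 ± 146 CPM at t3 and 2123 ± 490.5 CPM at t4.

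**Figure D4:**
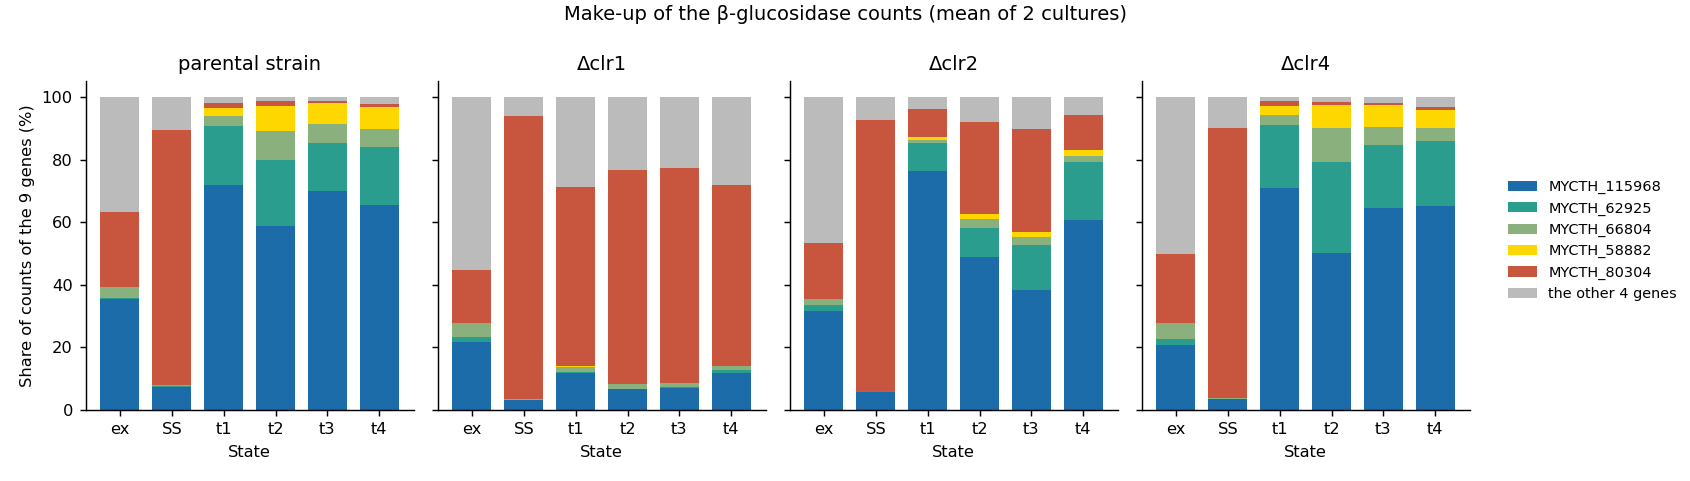
Share of each gene in the summed counts of the 9 predicted β-glucosidase genes (percent, stacked bars, mean of 2 cultures) in each state of the 4 strains. MYCTH_80304 fills most of the SS bars (81.5% to 90.4%), MYCTH_115968 takes over on cellulose in the parental strain, *Δclr2* and *Δclr4* (66.5%, 55.9% and 62.7% over t1 to t4), and MYCTH_80304 keeps the larger share in *Δclr1* (63.2%).

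The other 4 genes predicted to encode β-glucosidases, all of family GH3, showed little of this response. In the parental strain none of them was called in the mean of t1 to t4 against SS (edgeR and DESeq2, and 0 at an unadjusted p under 0.05). MYCTH_38200 had means of 69.5 CPM in SS and 57.1 to 68.9 CPM on cellulose, MYCTH_2059579 of 56.5 CPM and 40.1 to 110 CPM, and MYCTH_2302509 of 21.1 CPM and 17.7 to 23.6 CPM. In ex the parental means were 28.9 CPM for MYCTH_38200, 3.34 CPM for MYCTH_2059579 and 5.17 CPM for MYCTH_2302509, each below the SS mean. A higher level in SS than in ex was thus not particular to MYCTH_80304 and MYCTH_115968. MYCTH_2129052, a model of 314 bases, was at or below 1.55 CPM in every group and is not interpreted. MYCTH_2059579 also differed between the parental cultures at t1, by 4.15-fold. At single times the smallest adjusted p among these genes in the parental strain was 0.094 (MYCTH_2059579 at t2, log2 fold change 0.96).

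Single times in *Δclr1* included calls. There MYCTH_38200 was higher than in SS by 0.49 at t1 (adjusted p = 0.041) and lower by −1.12 at t4 (adjusted p = 3e-05), and MYCTH_2302509 was lower at all 4 times, by up to −0.83 at t4 (adjusted p = 7.4e-05). MYCTH_2059579 was higher by 1.36 at t1 (adjusted p = 0.0094) and 1.10 at t2 (adjusted p = 0.032). Its means in *Δclr1* were 114 CPM in SS and 292 CPM at t1. At a background of 51.5% to 55.1% of all tested genes called, these calls do not set the 4 genes apart. As a difference of the mean response from the parental strain, MYCTH_2302509 was called (−0.61 ± 0.19, adjusted p = 0.010), and MYCTH_38200 (−0.33 ± 0.24, adjusted p = 0.28) and MYCTH_2059579 (0.77 ± 0.50, adjusted p = 0.24) were not.

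Beside the other enzymes of cellulose breakdown, the 9 β-glucosidase genes had 4 members that rose and 1 that fell in the parental mean response, with a median log2 fold change of 0.14 (all tested genes: −0.06, with 15.3% called higher and 21.4% lower). Of the 9 endoglucanase genes 8 rose and 0 fell (median 4.11), of the 7 predicted cellobiohydrolase genes all 6 that passed the filter on low counts rose, and of the 24 predicted LPMO genes 22 were tested here and 14 rose (median 6.02). The β-glucosidase median was thus near that of all genes, with a rise confined to 4 of the 9, while most endoglucanase, cellobiohydrolase and LPMO genes rose.

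In *Δclr1*, 3 β-glucosidase genes rose and 3 fell (median 0.62), against 2 and 3 of the endoglucanase genes (median −0.33), 2 and 0 of the cellobiohydrolase genes (median 0.10) and 3 and 1 of the LPMO genes (median 0.37), where 27.7% of all genes were called higher and 33.2% lower. The 3 that rose include MYCTH_2129052, which held 0 counts in SS of *Δclr1* and at most 21 pooled counts in a state after the spike. With DESeq2, 4 β-glucosidase genes were higher and 2 lower. In *Δclr2*, 4 rose and 1 fell (median 1.62, which is the value of MYCTH_2129052 and rests on 2 counts in SS), against 4 and 0 (0.59), 4 and 0 (2.00) and 9 and 1 (0.86), where 26.1% and 30.6% of all genes were called. In *Δclr4*, 4 rose and 1 fell (median 0.03), against 8 and 0 (5.60), 6 and 0 (8.11) and 16 and 2 (6.61), where 18.2% and 25.7% were called. These lists follow the study's prediction of gene functions, and the β-glucosidase list contains the 5 genes described here.

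The regulator gene *clr2* itself had a median level of 481 CPM over the 12 parental libraries, 16.6 CPM in *Δclr1* and 1187 CPM in *Δclr4*, levels that were not tested across the centres. It rose on cellulose by 5.57 ± 0.37 in the parental strain (adjusted p = 7.2e-12), 6.79 ± 0.38 in *Δclr4* (adjusted p = 1.3e-13) and 0.67 ± 0.27 in *Δclr1* (adjusted p = 0.034). The part of *clr2* in the β-glucosidase values of *Δclr1* was not tested.

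Over the 24 group means of log2 CPM, the genes whose level ran most alike to each member were found among 7386 genes by Pearson's r, as a description, since the points share libraries, strains and states. For MYCTH_115968 these were MYCTH_2298860 (r = 0.9892), MYCTH_81013 (0.9869) and MYCTH_76901 (0.9866), a GH45 endoglucanase. For MYCTH_62925 they were MYCTH_58882 (0.9887), MYCTH_81925 (0.9815), a cellobiose dehydrogenase, which oxidises cellobiose, and MYCTH_81013 (0.9811). For MYCTH_58882 they were MYCTH_81925 (0.9916), MYCTH_62925 (0.9887) and MYCTH_2305813 (0.9859). Members of the pair MYCTH_62925 and MYCTH_58882 were thus among each other's nearest genes.

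MYCTH_66804 was most like MYCTH_2308413 (r = 0.9724), MYCTH_104674 (0.9716), a GH31 protein, and MYCTH_2305813 (0.9690). MYCTH_80304 ran with other genes, MYCTH_2305357 (0.9447), MYCTH_75490 (0.9380), a trehalase of family GH37, which splits the storage sugar trehalose, and MYCTH_50903 (0.9140). Among the 5 members, r was 0.940 to 0.989 between the 4 that rose and −0.257 to −0.131 between these and MYCTH_80304. The 4 were grouped by their rise on cellulose in these same libraries, so this split follows in part from the grouping.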

How the data were processed

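The authors deposited 1 table of raw counts per gene. Per the paper's methods and the processing notes, reads were checked with FastQC, trimmed with BBTools where needed, aligned with STAR to the ASM22609v1 assembly and tested with DESeq2. Versions and the counting program are not given in the sources used here, and whether counting used strand is not stated. The table's 48 columns cover 49 sample entries, since 1 library (*Δclr4* t4 R2) was run on 2 flow cells.

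The counts were analysed here with R 4.3.3, edgeR 4.0.16 and limma 3.58.1: TMM normalisation, filterByExpr with a minimum count of 10 (8565 of 9292 genes kept), a robust quasi-likelihood fit of 24 groups (24 residual degrees of freedom) and Benjamini-Hochberg adjustment. The fit and contrasts were tested on simulated data. The simulation used independent libraries, the same spread for all genes and changes of a few fold in genes above a minimum level. It therefore does not bear on changes from almost no counts or on repeated samples of a culture. DESeq2 1.42.0, other size factors, no filter, a replicate block, a model of the compared strains alone, no ex libraries and leaving out each of the 48 libraries were the alternatives. Gene spans, introns included, came from RefSeq for the same assembly, and all 5 genes matched. Intervals of count ratios cover counting error only.

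The genes named are the 5 members, the other 4 predicted β-glucosidases, *clr1*, *clr2* and *clr4*, and the 3 genes with the highest r to each member among those with a mean count of at least 50 (log2 CPM with a prior count of 2). Members and lists were chosen with earlier results of these data known. The replicate number names a bioreactor culture sampled in 6 states, which is where the pairing comes from. Deviations from the group means correlated within a culture with a median r of 0.0396 (parental), 0.217 (*Δclr1*), 0.0854 (*Δclr2*) and 0.248 (*Δclr4*) over 15 pairs each, against −0.00046 between strains (216 pairs). The p-values rest on the spread between the 2 cultures of a group, estimated jointly over all 24 groups and moderated across genes, with 1 line per genotype. As each culture was sampled in 6 states, the 24 residual degrees of freedom do not stand for as many independent cultures. Predicted sequences of the genes were not used here.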

Additional observations from a re-analysis of the deposited data

Results flagged for a closer look

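The response to cellulose (mean of t1 to t4 against SS, log2) differed between strains by the test of the difference itself in 16 cases, which are the calls already described. Between *Δclr1* and the parental strain they were −6.11 for MYCTH_115968, −9.03 for MYCTH_62925, −5.09 for MYCTH_66804, −10.79 for MYCTH_58882 and 1.31 for MYCTH_80304. Between *Δclr1* and *Δclr4*, of 1 sequencing centre, they were −6.56, −9.49, −5.22, −9.51 and 2.14 in the same order. Between *Δclr2* and the parental strain, of the other centre, they were −2.47 for MYCTH_115968, −2.26 for MYCTH_66804 and 1.45 for MYCTH_80304. Between *Δclr1* and *Δclr2*, whose centres differ, they were −3.64 for MYCTH_115968, −7.01 for MYCTH_62925 and −2.83 for MYCTH_66804.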

How the results depend on the processing

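With DESeq2's size factors in edgeR, all 222 results compared kept their direction and side of the threshold. With the culture as a replicate block, 10 results passed the threshold that had not done so before, as given beside them, and the block changed no other call among those it was run on. Levels between strains have no such fit, since a culture belongs to 1 strain. It moved the step calls from 5 to 10 in the parental strain and from 1 to 2 in *Δclr1*. DESeq2 lost 1 call (MYCTH_58882 in the last *Δclr4* step), and likewise called 2 *Δclr1* steps, 5 genes instead of 3 in the difference between *Δclr2* and parental responses, and 0 instead of 2 LPMO genes lower in *Δclr4*. Leaving out 1 library gave 1 to 2 genes called in the *Δclr1* mean response, 6 to 9 calls at its single times, 2 to 4 genes in the difference between *Δclr2* and the parental strain and 2 to 4 genes in *Δclr1* against ex. It gave 0 to 1 step calls in *Δclr1* and 6 to 10 in *Δclr4*. The uncalled difference of *Δclr4* from the parental response changed sign for MYCTH_62925 (−0.04 to 0.79) and MYCTH_66804 (−0.03 to 0.43). The causes were not tested.

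Per kilobase of gene span, the share of MYCTH_115968 among the 9 genes was 10.0%, 4.42%, 8.15% and 4.75% in SS and 73.0%, 12.5%, 63.3% and 69.9% over t1 to t4 (parental strain, *Δclr1*, *Δclr2*, *Δclr4*). That of MYCTH_80304 was 77.1%, 88.4% and 83.0% in SS of the first 3 strains, and over t1 to t4 it was 0.861% in the parental strain, 16.6% in *Δclr2* and 0.782% in *Δclr4*. These shares move by construction, since the genes differ in length.

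Of the counts over all genes, 7 moved by over 1.5 times in an alternative fit of all libraries of the compared strains. They were the difference of *Δclr4* from the parental response (4 genes, 19 with DESeq2 and 15 with the block), that between *Δclr1* and *Δclr2* responses (336, 552 with the block), *Δclr2* against the parental strain in SS (8, 23 with DESeq2, 3 without ex and 22 with these strains alone), *Δclr1* against *Δclr4* in SS (33, 64, 18 and 14) and the *Δclr1* steps to t2 (1472, 952 alone), t3 (1351, 867 alone) and t4 (211, 369 with DESeq2, 486 with the block, 136 without ex and 50 alone). Leaving out 1 library moved more of them, such as the parental mean response from 3139 to 1981 genes without SS R1. Depth limits MYCTH_58882, whose SS levels rest on 1 parental, 2 *Δclr2* and 10 *Δclr1* counts, and MYCTH_62925 on glucose.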
